A study of Homo sapiens with 18 samples.

Results

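The genes described here are 7 ATP-binding cassette (ABC) transporters that carry drugs or their conjugates out of cells, ABCB1, ABCC1, ABCC2, ABCC3, ABCC4, ABCC5 and ABCG2, together with MVP, the major vault protein. They were chosen by symbol, and all 8 were found among the 60603 genes counted. The RNA came from MDA-MB-231, an established mesenchymal-like line of human breast cancer without hormone receptors. The study asked how ZMYND8, a reader of chromatin marks, alters the response of these cells to doxorubicin, a chemotherapy drug that damages DNA. A transient system of 6 libraries held 3 groups: control cells, cells kept for 48 h with doxorubicin at 0.6 µM, and a group whose label adds FLAG-ZMYND8 to the same treatment. The protocol names an empty vector and a vehicle for the controls. An inducible system of 12 libraries held 6 groups. Their cells carried a GFP or a ZMYND8 cDNA (FLAG-ZMYND8 in the labels) in pInducer20. Both kinds of cells were taken without doxorubicin and after 6 or 48 h at 0.6 µM. These cells were under G418 selection and received doxycycline at 250 ng/mL, which switches on the cDNA. The labels describe 1 line per cDNA, so the cDNA and the line that carries it cannot be told apart. Each of the 9 conditions had 2 libraries.

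ABC transporters use the energy of ATP hydrolysis to move substrates across membranes. ABCB1 (P-glycoprotein) and ABCG2 (breast cancer resistance protein) export many unmodified hydrophobic drugs, and doxorubicin is a classic substrate of ABCB1. The ABCC members, known as multidrug resistance-associated proteins, export organic anions, among them conjugates with glutathione, glucuronate or sulfate and, for ABCC4 and ABCC5, cyclic nucleotides. MVP forms most of the shell of vaults, large ribonucleoprotein particles of the cytoplasm that were first linked to drug resistance in tumor cells selected with anthracyclines.

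In the hg38 annotation behind the counts, ABCB1 (ENSG00000085563.14) lies on chromosome 7 at 87503633 to 87713323 on the minus strand. ABCG2 (ENSG00000118777.12) lies on chromosome 4 at 88090150 to 88231628 on the minus strand. The ABCC genes are spread over several chromosomes. ABCC1 (ENSG00000103222.19) lies on chromosome 16 at 15949577 to 16143074 and ABCC3 (ENSG00000108846.16) on chromosome 17 at 50634777 to 50692253, both on the plus strand. ABCC2 (ENSG00000023839.12) lies on chromosome 10 at 99782640 to 99852594 on the plus strand, and ABCC4 (ENSG00000125257.16) on chromosome 13 at 95019835 to 95301475 on the minus strand. ABCC5 (ENSG00000114770.17) lies on chromosome 3 at 183919934 to 184017939 on the minus strand, and MVP (ENSG00000013364.19) on chromosome 16 at 29820394 to 29848039 on the plus strand. No member shares exon bases with a gene on the opposite strand. On its own strand MVP shares 185 bases (3.01% of its exons) with PAGR1 and 154 bases (2.51%) with a gene that has no symbol.

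The total count per library was 5858550 and 5904185 in the transient controls, 5729294 and 24713822 after doxorubicin. It was 5972396 and 5740091 for the libraries labelled ZMYND8 plus doxorubicin, so the second library of doxorubicin alone stood apart in depth. In the inducible system the totals were 20864386 and 20053500 in untreated GFP cells, 20356028 and 19614037 at 6 h, then 20175357 and 21176172 at 48 h. In ZMYND8 cells they were 18300628 and 23724398, then 22059838 and 20846331 at 6 h, then 22142730 and 20888496 at 48 h. Libraries of 48 h differed from the rest in how many genes they detected. A count of at least 1 was found for 30201 to 30566 genes in the 4 inducible libraries of 48 h, against 22477 to 23609 in the other 8.

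In the transient system, 3 properties of the files bear on every comparison. First, 2 libraries of different groups were nearly identical, the second of doxorubicin alone and the second of those labelled ZMYND8 plus doxorubicin. Chi-square divided by its degrees of freedom was 1.39 for this pair, against 9.71 to 55.6 in the other 14 transient pairs and 10.7 to 22.7 between libraries of 1 group. In the inducible system, libraries of 1 group differed by 2.19 to 5.21. Next, the strands were not separated in the transient counts. For genes lying within exons of an expressed gene on the opposite strand, the ratio of antisense to sense counts was 1.46 to 1.65 in transient libraries and 0.0632 to 0.102 in inducible ones. Last, the level of ZMYND8 went against the label.

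ZMYND8 was measured first in every library, in CPM scaled with TMM factors. In the transient system it was at 218 and 198 CPM in controls and 181 and 122 CPM with doxorubicin alone. The libraries labelled ZMYND8 plus doxorubicin had 159 and 124 CPM, which is not above the controls, and they are called by that label below. In the inducible GFP cells ZMYND8 was at 208.9 and 207.8 CPM, at 6 h of doxorubicin 93.7 and 99.3, at 48 h 138 and 141. In ZMYND8 cells it was at 921 and 926 CPM, at 6 h 828 and 897, at 48 h 999.9 and 923. Every ZMYND8 library was above every GFP library, and counts per gene do not separate the transcript of the cDNA from the cell's own. The log2 fold change of ZMYND8 cells against GFP cells was 2.15 ± 0.05 (SE) without doxorubicin, 3.16 ± 0.05 after 6 h and 2.79 ± 0.05 after 48 h. ZMYND8 itself fell in GFP cells, by 1.11 on the log2 scale after 6 h and by 0.58 after 48 h.

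**Figure D1:**
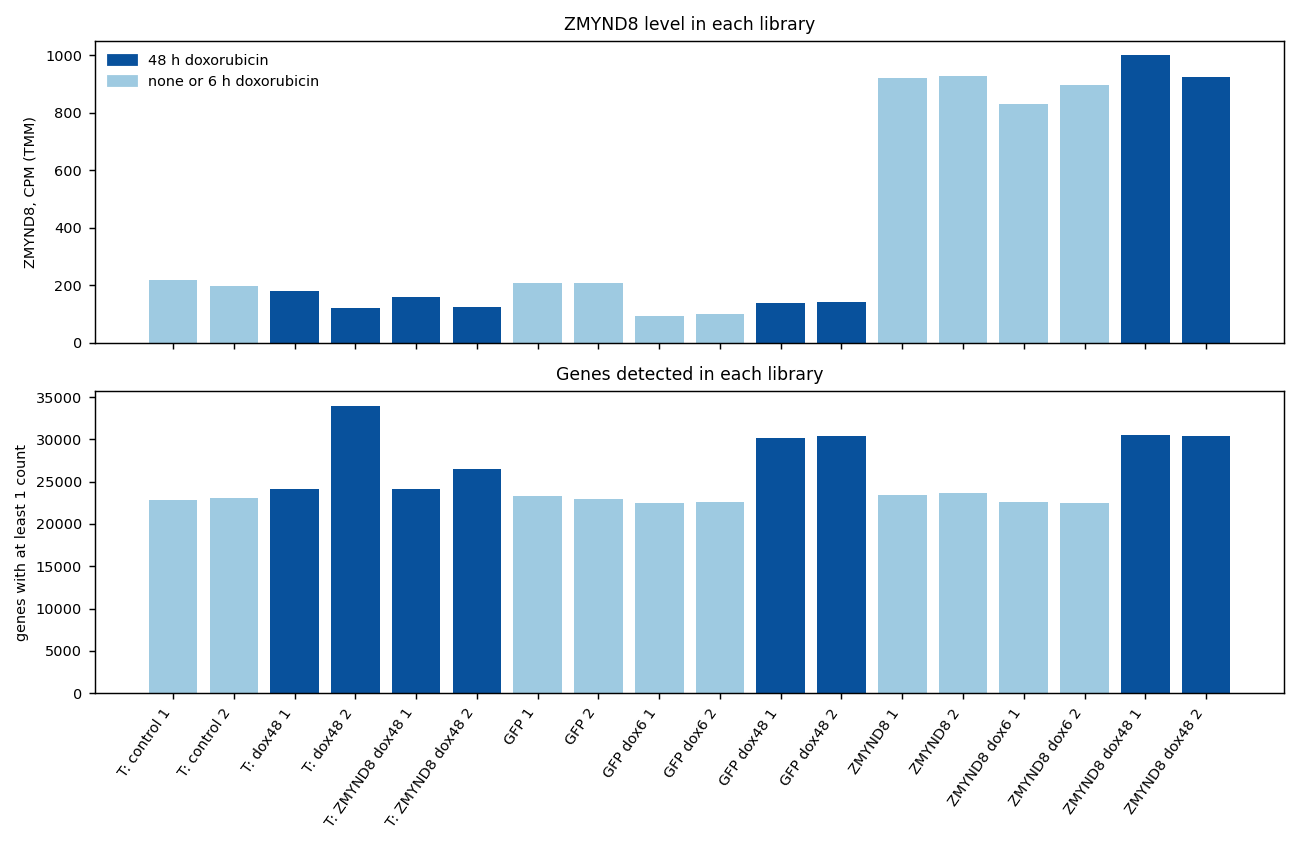
The upper plot shows the level of ZMYND8 (CPM, TMM-scaled) in each of the 18 libraries, and the lower plot shows the number of genes with at least 1 count in the same libraries; dark bars mark 48 h of doxorubicin. The 6 libraries of the inducible ZMYND8 line stand between 828 and 999.9 CPM, while the transient libraries labelled ZMYND8 plus doxorubicin are at 159 and 124 CPM.

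The markers fixed for the line were present. All 6 (VIM, CD44, AXL, CAV1, EGFR, MSN) had counts in every library, with VIM the most abundant. Their summed level in the inducible system was 7368 to 8771 CPM without 48 h of doxorubicin and 4053 to 4804 CPM with it, and all 6 fell at 48 h in both lines. Markers of other cells were less abundant. The 7 markers of luminal breast cells summed in GFP cells to 43.95 to 55.7 CPM without and 52.0 to 55.7 CPM with 48 h of doxorubicin. In ZMYND8 cells they summed to 29.7 to 31.04 CPM and 50.01 to 50.2 CPM, with EPCAM the most abundant in GFP cells and GATA3 or CDH1 in ZMYND8 cells, and with PGR, ESR1 or FOXA1 at 0 in some libraries. The 5 fibroblast markers summed to 23.7 to 33.2 CPM and 38.0 to 41.3 CPM in GFP cells and to 8.81 to 16.96 CPM and 10.4 to 15.7 CPM in ZMYND8 cells, with COL1A1 or PDGFRB the most abundant. The 5 leukocyte markers went from 15.1 to 20.2 CPM to 20.6 to 21.6 CPM at 48 h in GFP cells and from 2.27 to 2.78 CPM to 5.36 to 5.44 CPM in ZMYND8 cells. CD14 was the most abundant of them in every library, and CD3E was at 0 in 7 of the 12. The 5 markers of liver and intestine, tissues rich in ABCB1 and ABCC2, summed in the inducible system to 0.105 to 0.472 CPM without 48 h and 0.807 to 1.51 CPM with it. They were higher in the transient system, at 7.41 to 10.6 CPM in controls and 10.9 to 15.7 CPM in treated cells, with VIL1 the most abundant. The fibroblast markers were higher there too, at 85.9 to 109 CPM in controls and 44.6 to 71.1 CPM in treated cells, while the luminal markers summed to 41.2 to 58.4 CPM and the leukocyte markers to 2.77 to 6.70 CPM. APOB, CYP3A4 and SLC10A1 were at 0 in all 8 inducible libraries without 48 h of doxorubicin. What part these markers have in the members' changes was not tested.

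Promoter windows from RefSeq (GRCh38.p14, 250 bases before to 50 after a start) were found for 6 of the 8 members, with 13 windows in all, and none was listed for ABCC1 and ABCC3. Shown are the windows at the main annotated start of ABCB1, whose counts appeared after 48 h of doxorubicin, of ABCG2, which differed most between the lines, and of ABCC4 and MVP, which fell most in GFP cells. Each is written 5′ to 3′ on the gene's strand (ABCB1 chr7:87600835-87601134 minus, ABCG2 chr4:88158590-88158889 minus, ABCC4 chr13:95301402-95301701 minus, MVP chr16:29820212-29820511 plus). Capitals mark matches, on either strand, to the 6 motifs searched: ATTGG, which NF-Y reads, GGGCGG, which SP1 reads, TATAAA near some starts, TGACNNNGC as the core of antioxidant response elements, TGANTCA for AP-1 and CANNTG, the E box.
ABCB1: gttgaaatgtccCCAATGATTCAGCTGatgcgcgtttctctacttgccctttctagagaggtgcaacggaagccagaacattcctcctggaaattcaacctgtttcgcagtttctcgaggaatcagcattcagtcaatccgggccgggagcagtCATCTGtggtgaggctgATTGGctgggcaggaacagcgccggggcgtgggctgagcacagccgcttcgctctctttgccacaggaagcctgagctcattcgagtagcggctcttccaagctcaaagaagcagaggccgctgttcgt
ABCG2: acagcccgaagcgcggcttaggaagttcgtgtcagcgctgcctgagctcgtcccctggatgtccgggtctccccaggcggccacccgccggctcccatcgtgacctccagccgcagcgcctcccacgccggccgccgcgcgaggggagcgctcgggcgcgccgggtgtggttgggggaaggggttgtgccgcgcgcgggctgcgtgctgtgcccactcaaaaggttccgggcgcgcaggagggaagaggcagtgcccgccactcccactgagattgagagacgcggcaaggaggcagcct
ABCC4: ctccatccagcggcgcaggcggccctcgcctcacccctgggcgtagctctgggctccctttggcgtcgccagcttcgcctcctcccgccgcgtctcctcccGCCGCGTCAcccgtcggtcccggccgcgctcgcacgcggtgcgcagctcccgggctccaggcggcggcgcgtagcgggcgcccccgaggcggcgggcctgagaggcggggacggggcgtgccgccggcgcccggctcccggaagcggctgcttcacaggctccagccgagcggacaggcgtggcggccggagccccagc
MVP: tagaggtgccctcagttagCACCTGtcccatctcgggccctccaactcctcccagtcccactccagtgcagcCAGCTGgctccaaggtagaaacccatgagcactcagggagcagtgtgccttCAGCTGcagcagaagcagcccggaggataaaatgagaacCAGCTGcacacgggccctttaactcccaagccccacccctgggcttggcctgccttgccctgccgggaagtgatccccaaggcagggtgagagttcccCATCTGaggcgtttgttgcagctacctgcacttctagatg
The ABCB1 window held 2 matches to ATTGG, 1 to TGANTCA and 2 to CANNTG, and the first ATTGG match, read on the other strand, overlaps the TGANTCA match, which runs on into a CANNTG match. The ABCG2 window shown held none of the 6. Its windows 220 and 270 bases from the main start each held 2 matches to GGGCGG and 1 to CANNTG. That at 651 bases held 1 to TGACNNNGC, and that at 72987 bases held none. The ABCC4 window held 1 match to TGACNNNGC and the MVP window shown 5 to CANNTG. An MVP window 68 bases away held 1 match to ATTGG and 6 to CANNTG. The windows shown differed in base composition, from 55.3% G and C in ABCB1 and 60.0% in MVP to 72.0% in ABCG2 and 79.7% in ABCC4. Among 35116 windows of the same length, 34.6% held ATTGG, 45.0% GGGCGG, 11.5% TATAAA, 13.3% TGACNNNGC, 7.71% TGANTCA and 68.7% CANNTG. A match is a run of letters and not a shown binding site.

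Levels were compared between genes per kilobase of exon as RPKM, from the same TMM-scaled values. MVP was the highest member in each of the 9 conditions, at 37.8 ± 1.08 RPKM (SD, n = 2) in untreated GFP cells. ABCC4 (7.79 ± 0.108) and ABCC3 (7.38 ± 0.142) followed there, then ABCC5 (3.18 ± 0.146) and ABCC1 (1.64 ± 0.306). ABCC2 (0.237 ± 0.0160) and ABCG2 (0.162 ± 0.0241) were near the bottom, and ABCB1 was at 0. The lines differed mainly in ABCG2, which reached 2.93 ± 0.210 RPKM in untreated ZMYND8 cells, close to ABCC1 at 3.16 ± 0.941. The systems differed in ABCC3, which at 32.7 ± 3.16 RPKM was second to MVP in the transient controls, and in ABCG2, whose transient controls had 0.509 and 1.92 RPKM, both above untreated GFP cells.

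ABCB1 had no count in any of the 8 inducible libraries without 48 h of doxorubicin. After 48 h it had 11 and 21 counts in GFP cells (0.488 and 0.883 CPM) and 11 and 13 in ZMYND8 cells (0.447 and 0.552 CPM). Libraries of the lines overlapped at 48 h. ABCG2 was at 0.810 and 1.00 CPM in GFP cells, at 6 h 1.36 and 0.909, at 48 h 3.10 and 2.48. In ZMYND8 cells it was at 15.6 and 17.2 CPM, at 6 h 12.8 and 13.96, at 48 h 9.38 and 10.3. All 6 ZMYND8 libraries were above all 6 GFP libraries, and the order descended with time in ZMYND8 cells and ascended in GFP cells. Only untreated GFP cells and GFP cells of 6 h overlapped among neighbors in that order.

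MVP, the vault shell protein, was at 228 and 237 CPM in GFP cells, at 6 h 187 and 164, at 48 h 109 and 109. In ZMYND8 cells it was at 163 and 165 CPM, then 125 and 137, and then 66.1 and 66.4. MVP was thus lower at each later time in both lines, and among neighbors in the order of the 6 groups only GFP cells of 6 h and untreated ZMYND8 cells overlapped. ABCC4, an exporter of cyclic nucleotides and drug conjugates, was at 66.5 and 67.9 CPM in GFP cells, at 6 h 59.9 and 64.9, at 48 h 21.3 and 21.0. In ZMYND8 cells it was at 50.4 and 49.9 CPM, at 6 h 49.0 and 50.4, at 48 h 23.9 and 24.4. The 4 libraries of 48 h were below the other 8, and the untreated and 6 h libraries of ZMYND8 cells overlapped.

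ABCC3, an exporter of bile salts and glucuronides, was at 70.0 and 71.9 CPM in GFP cells, at 6 h 58.9 and 58.9, at 48 h 47.5 and 45.3. In ZMYND8 cells it was at 47.6 and 43.3 CPM, at 6 h 39.3 and 43.2, at 48 h 37.5 and 36.1. Untreated ZMYND8 cells thus overlapped with GFP cells of 48 h. ABCC1, an exporter of glutathione conjugates, was at 14.1 and 10.8 CPM in GFP cells, at 6 h 10.4 and 7.86, at 48 h 8.38 and 10.4. In ZMYND8 cells it was at 29.0 and 18.9 CPM, at 6 h 18.02 and 22.2, at 48 h 8.98 and 10.1. Its replicates were the furthest apart of the members above 5 CPM, and the untreated and 6 h libraries of ZMYND8 cells were above the other 8. ABCC5, which also exports cyclic nucleotides, stayed within 34.7 to 45.3 CPM in the 12 libraries, and ABCC2, an exporter of conjugates in liver and intestine, within 1.18 to 2.60 CPM. Both had groups that overlapped along most of their order. The libraries are bulk RNA, so fewer cells of a type and less RNA per cell cannot be told apart in any of these values.

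**Figure D2:**
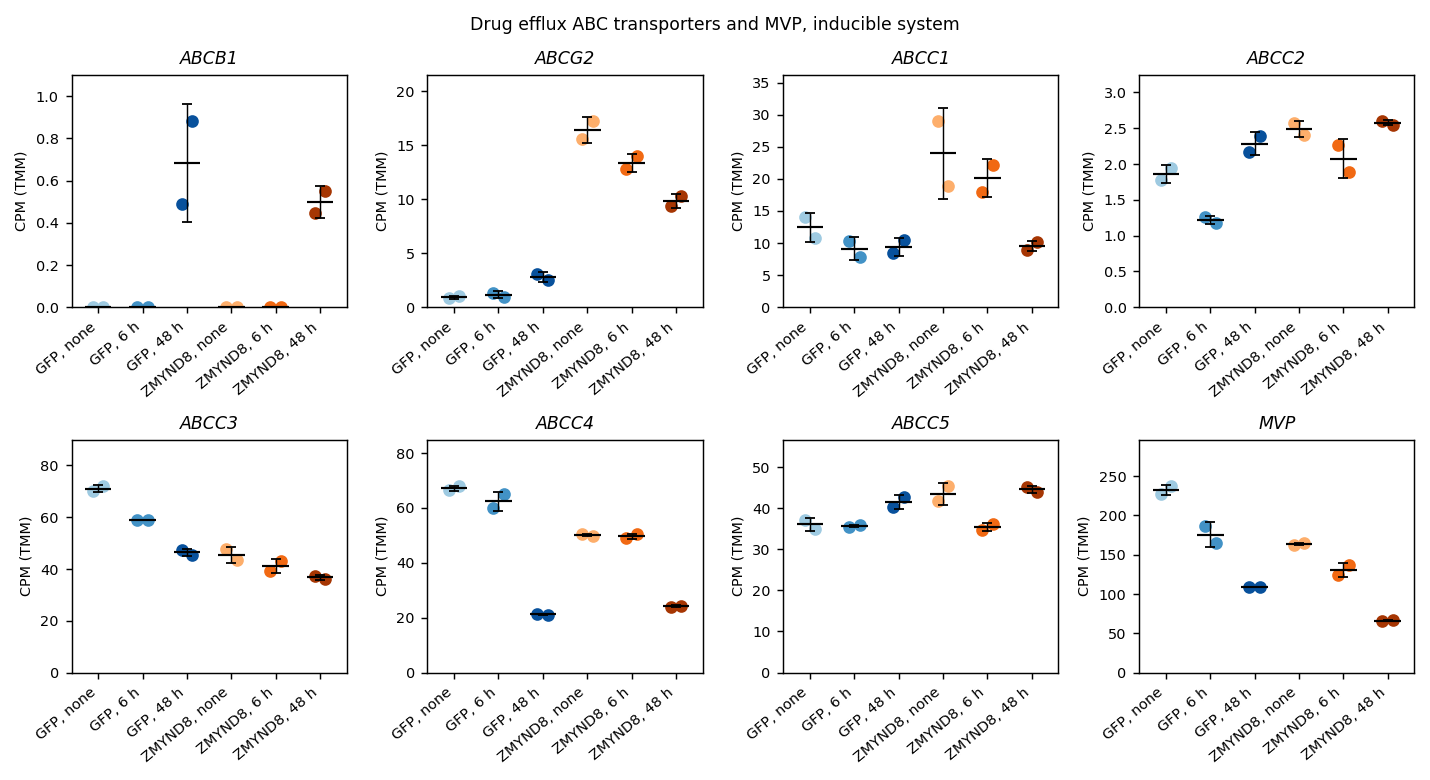
Each panel shows 1 member, with its TMM-scaled CPM in the 12 inducible libraries on the vertical axis from 0 and the 6 groups along the horizontal axis. Points are libraries, long bars the mean and whiskers the SD of 2 libraries; ABCG2 stands at 9.38 to 17.2 CPM in ZMYND8 cells and 0.810 to 3.10 CPM in GFP cells, and ABCB1 is at 0 without 48 h of doxorubicin.

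The comparison of GFP cells after 48 h of doxorubicin with untreated GFP cells shows the drug's late effect without the ZMYND8 cDNA. ABCC4 fell most, 3.17-fold (log2 fold change -1.67 ± 0.06, SE, adjusted p = 1.69e-18). MVP fell 2.13-fold (-1.09 ± 0.05, adjusted p = 2.07e-16) and ABCC3 fell 1.53-fold (-0.61 ± 0.06, adjusted p = 5.55e-10). ABCG2 rose 3.07-fold from a low level (1.62 ± 0.25, adjusted p = 2.67e-06). In every member, called or not, both treated libraries lay on 1 side of both untreated ones. ABCB1 was at least 4.33-fold higher, a lower bound computed against 3 counts per library, since it had no counts in untreated cells. Smaller changes were a fall of ABCC1 (-0.40 ± 0.18, adjusted p = 0.0471) and a rise of ABCC5 (0.20 ± 0.07, adjusted p = 0.00856), while ABCC2 was not called (0.30, 95% interval -0.22 to 0.81). Of the 7 members other than ABCB1, 2 rose and 4 fell at an adjusted p of at most 0.05, beside 64.2% of all 18801 genes tested, so the count does not set them apart. Their median log2 fold change was -0.40, against 0.03 over all genes. Over the alternative settings the log2 fold change ranged from -0.65 to -0.37 for ABCC3 and from 0.15 to 0.45 for ABCC5. The fall of ABCC1 was not called without the first GFP library (adjusted p = 0.415), without the first GFP library of 48 h (0.278), with DESeq2 (0.26) or with total counts (0.437). The rise of ABCC5 was not called without the second GFP library (0.13) or the second GFP library of 48 h (0.119).

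ABCB1 passed the filter on low counts through the 48 h groups alone, so its difference is given as a bound and not as a test. Other silent genes gained counts as well. Of 30047 genes without a count in the 8 inducible libraries of untreated and 6 h cells, 1277 (4.25%) had counts in all 4 libraries of 48 h. ABCB1, with 56 counts summed over these 4, was at percentile 96.2 of the 1277 genes, whose median sum was 13. Together the 30047 genes took 0.0557% of the counts at 48 h. Among the 48 ABC genes, 4 had no count without 48 h of doxorubicin, and all 4 had counts in each library of 48 h. Besides ABCB1 these were the bile salt exporter ABCB11 (7 and 5 counts in GFP cells, 2 and 3 in ZMYND8 cells), the sulfonylurea receptor ABCC8 (5 and 14, 2 and 2) and the sterol transporter ABCG8 (40 and 35, 21 and 20). The liver genes APOB, CYP3A4 and SLC10A1 did the same. At 6 h, by contrast, 10 of 32233 genes without counts in the 4 untreated libraries had counts in all 6 h libraries. What part this wide appearance of low counts has in ABCB1 was not tested.

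The rest of the transporter family and related genes moved in both directions in GFP cells at 48 h, where 32.4% of all genes rose and 31.8% fell. The counts given here and below leave out genes with a group at 3 counts or fewer. Of 9 ABCA genes, mostly lipid transporters, 6 rose and 3 fell (median 1.12). They included rises of ABCA4 (3.03 ± 0.30) and ABCA5 (1.44 ± 0.12) and falls of the cholesterol exporter ABCA1 (-1.40 ± 0.06) and of ABCA2 (-1.43 ± 0.06). Of 5 other ABCB genes tested of 10, 3 fell, among them the lysosomal peptide transporter ABCB9 (-0.49 ± 0.07) and the mitochondrial ABCB10 (-0.27 ± 0.07). Of 3 other ABCC genes, 1 rose and 1 fell, with ABCC9, a potassium channel subunit, at 4.40 ± 0.32 and ABCC10 at -0.60 ± 0.07. Of 3 ABCE and ABCF genes 1 rose (ABCF2, 0.71 ± 0.07), and of 2 other ABCG genes 1 rose and 1 fell (ABCG4 1.05 ± 0.28, ABCG1 -0.61 ± 0.16). The vault partner PARP4 fell with MVP (-0.67 ± 0.04), and 1 of the 2 vault partners tested of 6 was called. Of 17 genes for uptake and metabolism of doxorubicin, 4 rose and 8 fell (median -0.14). They included a rise of the carbonyl reductase CBR3 (0.51 ± 0.09) and falls of the aldo-keto reductases AKR1C2 (-1.38 ± 0.35) and AKR1C1 (-0.89 ± 0.19). Of 13 target genes of NRF2, a regulator of antioxidant genes and several ABCC genes, 1 rose and 8 fell (median -0.40), led by ME1 (-1.93 ± 0.08) and SLC7A11 (-1.29 ± 0.06). Of 24 regulators of transporter genes tested of 25, 6 rose and 15 fell (median -0.20), with EGR1 up (2.04 ± 0.09) and HIF1A (-1.18 ± 0.04) and KAT2B (-0.99 ± 0.06) down. Markers of other cells moved at 48 h as well. CDH1 (3.88 ± 0.23), PTPRC (2.88 ± 0.38) and COL1A1 (0.63 ± 0.11) rose and EPCAM (-0.39 ± 0.08) and GATA3 (-0.36 ± 0.11) fell in GFP cells, and their part in the members' values was not tested. Scaling by total counts moved the median of all genes up by 0.24 in this comparison and by 0.20, 0.15 and 0.13 in the 48 h comparisons of ZMYND8 cells, of transient doxorubicin and of the transient group labelled ZMYND8 plus doxorubicin. The share of rises among called genes then went from 50.5% to 68.0% in GFP cells at 48 h and from 50.6% to 66.8% in ZMYND8 cells at 48 h. Changes are therefore given relative to the TMM scale.

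At 6 h in GFP cells, the early response, the members moved little. MVP fell 1.32-fold (-0.40 ± 0.05, adjusted p = 1.21e-07) and ABCC3 less (-0.27 ± 0.06, adjusted p = 0.000349), with both treated libraries below both untreated ones. ABCC1 fell by 0.45 ± 0.18 on the log2 scale (adjusted p = 0.0445), and ABCB1 was at 0 in both groups. Among the 7 members with counts, 3 fell and 0 rose, beside 47.9% of all genes called, and their median was -0.27 against -0.05 over all genes. ABCC4 was not called (-0.11, 95% interval -0.22 to 0.01), nor were ABCG2 (0.33, -0.31 to 0.97), ABCC2 (-0.61, -1.19 to -0.03) and ABCC5 (-0.02, -0.16 to 0.12). Both treated libraries of ABCC1, ABCC2 and ABCC4 also lay below both untreated ones. The fall of ABCC1 was not called without the first GFP library (adjusted p = 0.424), without the second GFP library of 6 h (0.364) or with DESeq2 (0.212). Among the other genes, 7 of the 13 NRF2 targets rose and 4 fell (median 0.34), with SRXN1 (0.97 ± 0.10) and TXNRD1 (0.78 ± 0.04) up and HMOX1 (-0.57 ± 0.08) down. The sterol exporters ABCG1 (-2.61 ± 0.20) and ABCA1 (-1.38 ± 0.06) fell, as did 5 of 9 ABCA genes with 0 rises. The translation factors ABCE1 (0.99 ± 0.05) and ABCF2 (1.02 ± 0.07) rose. PARP4 fell (-0.64 ± 0.04), and of 24 regulators 10 rose and 10 fell, with EGR1 up (0.90 ± 0.10) and RXRA down (-1.13 ± 0.05). The markers PDGFRB (-0.83 ± 0.13), GATA3 (-0.61 ± 0.12) and CD14 (-0.35 ± 0.11) of other cells fell, and of the 6 line markers 2 rose and 3 fell. What part they have was not tested.

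Without doxorubicin, the lines differed most in ABCG2. It was 18.1-fold higher in ZMYND8 cells than in GFP cells (log2 fold change 4.17 ± 0.19, adjusted p = 2.43e-16), and ABCC1 was 1.90-fold higher (0.93 ± 0.16, adjusted p = 1.42e-05). Over the alternative settings the log2 fold change of ABCC1 ranged from 0.62 to 1.22. ABCC5 was slightly higher (0.27 ± 0.07, adjusted p = 0.000883). ABCC3 was 1.57-fold lower (-0.65 ± 0.06, adjusted p = 3.51e-10), MVP 1.42-fold lower (-0.51 ± 0.05, adjusted p = 1.28e-09) and ABCC4 1.34-fold lower (-0.42 ± 0.06, adjusted p = 3.05e-07). In each of these 6 genes, and in ABCC2, both ZMYND8 libraries lay on 1 side of both GFP libraries. ABCC2 was not called (0.41, 95% interval -0.11 to 0.93), and ABCB1 had no counts in either line. Without ABCB1, 3 members were higher and 3 lower, beside 58.3% of all genes called and medians of 0.27 for the members and 0 for all genes. ABCC9, a relative of the ABCC members, was higher in ZMYND8 cells by 5.18 ± 0.29. The other sterol and lipid transporters ABCG4 (-2.76 ± 0.42), ABCG1 (-2.62 ± 0.19), ABCA3 (-1.23 ± 0.08) and ABCA1 (-1.02 ± 0.06) were lower, with 2 of 9 ABCA genes higher and 4 lower. Of 5 other ABCB genes 2 were higher and 1 lower. Of the 13 NRF2 targets, 8 were higher and 3 lower (median 0.32), with FTL (1.15 ± 0.04) and TXNRD1 (1.06 ± 0.04) higher and HMOX1 (-1.01 ± 0.08) lower. Of 17 genes for uptake and metabolism of doxorubicin 6 were higher and 9 lower, with AKR1C1 at 2.57 ± 0.14 and AKR1C2 at 1.22 ± 0.28. Of 24 regulators 11 were higher and 7 lower. EGR1 was higher (2.61 ± 0.08), as were EZH2 (0.80 ± 0.06) and KDM5C (0.79 ± 0.05), and KAT2B (-1.25 ± 0.07) and CTNNB1 (-1.19 ± 0.04) were lower. Markers of other cells moved with the lines too. The leukocyte marker CD14 (-3.13 ± 0.14), the fibroblast markers PDGFRB (-2.07 ± 0.15) and COL1A1 (-0.75 ± 0.13) and the luminal marker EPCAM (-1.78 ± 0.09) were lower in ZMYND8 cells and the luminal marker CDH1 (2.53 ± 0.27) higher. Their part in the members' values was not tested.

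In ZMYND8 cells, 48 h of doxorubicin lowered 5 members. ABCC1 fell 2.49-fold (-1.31 ± 0.16, adjusted p = 6.56e-08) and MVP 2.47-fold (-1.31 ± 0.05, adjusted p = 2.06e-17). ABCC4 fell 2.07-fold (-1.05 ± 0.06, adjusted p = 4.02e-14) and ABCG2 1.67-fold (-0.74 ± 0.13, adjusted p = 1.45e-05), each with both treated libraries below both untreated ones. ABCC3 fell by 0.30 ± 0.06 on the log2 scale (adjusted p = 0.000166), its treated libraries also below the untreated ones. ABCB1 was at least 2.99-fold higher against 3 counts per library. Of the 7 members other than ABCB1, 5 fell and 0 rose, beside 62.3% of all genes called, and their median was -0.74 against 0.05 over all genes. ABCC5 (0.03, 95% interval -0.09 to 0.16) and ABCC2 (0.05, -0.43 to 0.54) were not called. With total counts ABCC3 was not called (-0.10, adjusted p = 0.188) and ABCC5 was called as a rise (0.24, adjusted p = 0.00166). Of the NRF2 targets 11 of 13 fell and 0 rose (median -0.32), among them ME1 (-1.94 ± 0.09) and TXNRD1 (-1.12 ± 0.04). Of 18 genes for uptake and metabolism 5 rose and 9 fell, with AKR1C3 (-0.95 ± 0.08) and NQO1 (-0.88 ± 0.04) down. ABCC9 rose (2.25 ± 0.12), and of 9 ABCA genes 4 rose and 3 fell. Of the vault partners, TEP1 rose (0.46 ± 0.08) and PARP4 fell (-0.63 ± 0.05). Of 24 regulators 6 rose and 13 fell, with HIF1A (-1.52 ± 0.04) and RXRA (-1.19 ± 0.05) down and EGR1 up (0.84 ± 0.06). Of the markers of other cells, CDH1 (2.31 ± 0.15), CD14 (0.50 ± 0.18) and GATA3 (0.41 ± 0.11) rose and EPCAM (-0.52 ± 0.11) and PDGFRB (-0.44 ± 0.19) fell, while PTPRC went from at most 3 counts per library to between 48 and 50. Their part was not tested.

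At 6 h in ZMYND8 cells, MVP fell (-0.33 ± 0.05, adjusted p = 8.35e-06) and so did ABCC5 (-0.30 ± 0.07, adjusted p = 0.000499), each with both treated libraries below both untreated ones. The treated libraries of ABCG2, ABCC3 and ABCC2, which were not called, lay below the untreated ones too. In this comparison 2 of the 7 members with counts fell and 0 rose, beside 40.8% of all genes called, with medians of -0.25 and -0.01. ABCG2 was not called (-0.30, 95% interval -0.56 to -0.04), nor were ABCC3 (-0.14, -0.27 to -0.01), ABCC1 (-0.24, -0.55 to 0.07), ABCC2 (-0.25, -0.76 to 0.26) and ABCC4 (-0.01, -0.13 to 0.11). Of these, ABCC1 was called as a fall without the second untreated ZMYND8 library (adjusted p = 0.00393), and ABCC3 without that library (0.0371) or the second ZMYND8 library of 6 h (0.0357). ABCG2 and ABCC3 were called as falls with total counts (-0.38, adjusted p = 0.0161, and -0.22, adjusted p = 0.00687), under which the share of rises among called genes went from 53.4% to 39.7%. ABCG2 was also called as a fall when the fit held only the groups compared (-0.31, adjusted p = 0.0208). Of the 13 NRF2 targets 9 rose and 1 fell (median 0.37), led by SRXN1 (1.16 ± 0.09), and ABCG1 fell (-2.51 ± 0.34). The fibroblast markers PDGFRB (-0.97 ± 0.21) and COL1A2, whose untreated libraries had 8 and 61 counts, fell, and 3 of the 6 line markers rose. What part they have was not tested.

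With doxorubicin, ABCG2 was still higher in ZMYND8 cells than in GFP cells, 11.7-fold after 6 h (3.54 ± 0.19, adjusted p = 7.82e-15) and 3.53-fold after 48 h (1.82 ± 0.16, adjusted p = 1.07e-10). ABCC1 was 2.20-fold higher after 6 h (1.14 ± 0.17, adjusted p = 2.3e-06), and after 48 h it was not called (0.02, 95% interval -0.35 to 0.38). MVP was lower at both times (-0.43 ± 0.05 and -0.72 ± 0.06), as was ABCC3 (-0.52 ± 0.06 and -0.33 ± 0.06). ABCC4 was lower after 6 h (-0.33 ± 0.06, adjusted p = 1.87e-05) and slightly higher after 48 h (0.19 ± 0.07, adjusted p = 0.0184). ABCC2 was higher after 6 h (0.77 ± 0.28, adjusted p = 0.0206). After 6 h 3 of the 7 members other than ABCB1 were higher and 3 lower, beside 55.5% of all genes called, with medians of -0.01 and 0. After 48 h 2 were higher and 2 lower, beside 60%, with medians of 0.10 and -0.04. For ABCB1 at 48 h, the ratio of ZMYND8 to GFP cells from the summed counts was 0.722 (95% counting interval 0.407 to 1.26), so no difference was detectable at this depth. The call of ABCC2 at 6 h was lost without either GFP library of 6 h (adjusted p = 0.0627 and 0.0966), without the first ZMYND8 library of 6 h (0.14), with DESeq2 (0.0844) and with no filter (0.084). The call of ABCC4 at 48 h was lost without either GFP library of 48 h (0.0575 and 0.0885), without the second ZMYND8 library of 48 h (0.0947), with DESeq2 (0.0761) and with no filter (0.0774). ABCC5, not called at 48 h (0.10, 95% interval -0.03 to 0.23), was called as higher when the fit held only the groups compared (0.13, adjusted p = 0.0426). Of the NRF2 targets, 9 were higher and 1 lower after 6 h, and 7 were higher and 5 lower after 48 h, with FTL higher at both times (1.30 ± 0.04 and 1.37 ± 0.04). AKR1C1 stayed higher (2.59 ± 0.14 and 2.74 ± 0.15), as did ABCC9 (5.05 ± 0.22 and 3.03 ± 0.12). The markers CD14, PDGFRB, COL1A1 and EPCAM stayed lower and CDH1 higher at both times, with CD14 at -2.67 ± 0.15 and -2.47 ± 0.13.

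**Figure D3:**
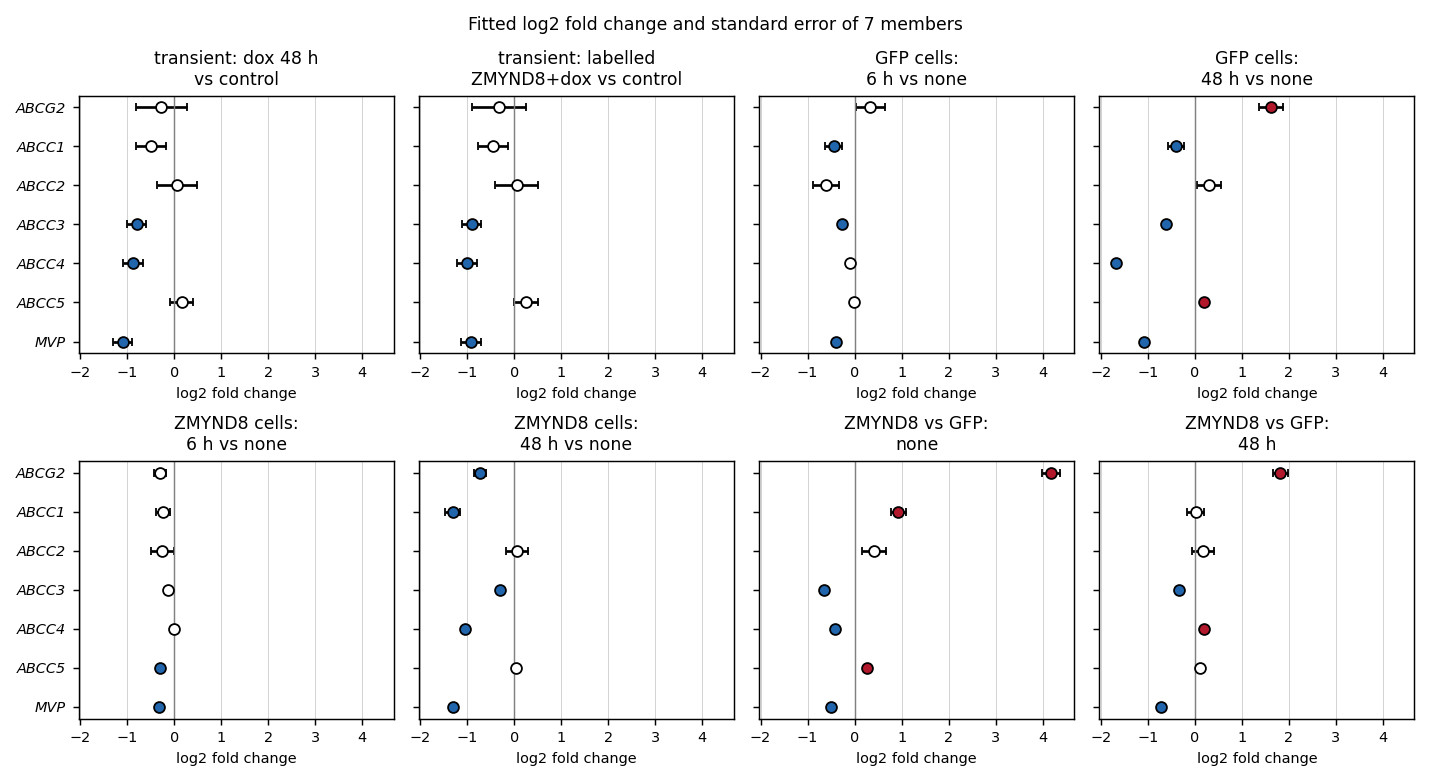
Each panel shows 1 comparison, with the fitted log2 fold change on the horizontal axis and the 7 members other than ABCB1 on the vertical axis; whiskers are the SE, red points rises, blue points falls and open points genes not called at an adjusted p of at most 0.05. ABCC4, MVP and ABCC3 are blue at 48 h in the transient system and in both inducible lines, while ABCG2 is red in GFP cells (1.62) and blue in ZMYND8 cells (-0.74); ABCC3 in ZMYND8 cells and ABCC4 and ABCC3 after transient doxorubicin keep their direction but not their call with total counts.

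The interaction, the change with doxorubicin in ZMYND8 cells minus that in GFP cells, tests whether the lines responded differently. At 48 h the lines differed most in ABCG2, which rose in GFP cells and fell in ZMYND8 cells (interaction -2.36 ± 0.28, adjusted p = 2.12e-07). ABCC1 fell more in ZMYND8 cells (-0.91 ± 0.24, adjusted p = 0.00461) and MVP slightly more (-0.22 ± 0.07, adjusted p = 0.0293). Over the alternative settings the interaction of ABCC1 ranged from -1.20 to -0.60. ABCC4 fell less in ZMYND8 cells (0.61 ± 0.09, adjusted p = 5.23e-06), as did ABCC3 (0.31 ± 0.09, adjusted p = 0.00638). Of the 7 members other than ABCB1, 5 were called, 2 above 0 and 3 below, beside 28.6% of all genes, with medians of -0.22 and -0.01. ABCC5 (-0.17, 95% interval -0.36 to 0.02) and ABCC2 (-0.24, -0.95 to 0.47) were not called, and ABCB1 gives no value, as both untreated groups were at 0. The interaction of MVP was not called without the first GFP library (adjusted p = 0.116), the first or second GFP library of 48 h (0.0583 and 0.0719), the second ZMYND8 library (0.068) or the first or second ZMYND8 library of 48 h (0.0705 and 0.0555). That of ABCC3 was not called without the second ZMYND8 library (0.0632), nor that of ABCC1 with DESeq2 (0.051). At 6 h, ABCC5 alone of the 7 was called (-0.28 ± 0.10, adjusted p = 0.0464), beside 13.4% of all genes, and it was not called with DESeq2 (0.0811) or with a replicate block (0.0562). It was also lost without the first or second library of untreated GFP cells (0.0535 and 0.182), GFP cells of 6 h (0.0925 and 0.121) or GFP cells of 48 h (0.0531 and 0.0525). The same held without the second untreated ZMYND8 library (0.223) and without the first or second of ZMYND8 cells of 6 h (0.129 and 0.0524) or 48 h (0.0558 and 0.0568). With total counts the share of values above 0 among called genes went from 58.8% to 32.2% at 6 h. Among related genes at 48 h, EGR1 (-1.20 ± 0.11), NQO1 (-0.74 ± 0.06) and ABCC9 (-2.15 ± 0.42) had interactions below 0 and TEP1 (0.63 ± 0.11), SLC7A11 (0.61 ± 0.08) and AHR (0.51 ± 0.07) above 0. Of the 13 NRF2 targets 3 were above 0 and 6 below, of the 24 regulators 7 and 5, and of 17 genes for uptake and metabolism 1 and 5. Of the 6 line markers 4 were above 0 and 2 below. Among markers of other cells, 1 leukocyte and 1 luminal marker were above 0, and 1 fibroblast and 1 luminal marker below. Their part in the members' values was not tested.

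In the transient system, MVP was at 371 and 288 CPM in controls, 154 and 153.6 with doxorubicin alone, and 189 and 156 in those labelled ZMYND8 plus doxorubicin. ABCC3 was at 336 and 293, 178 and 183, and 158 and 176 CPM, and ABCC4 at 48.8 and 57.5, 31.8 and 26.2, and 25.9 and 27.0 CPM in the same groups. In these 3 genes both controls were above all 4 treated libraries. ABCC1 was at 10.6 and 13.7, 7.78 and 9.38, and 10.9 and 6.87 CPM, and ABCG2 at 2.85 and 10.7, 3.11 and 7.56, and 4.88 and 6.05 CPM, with replicates far apart. ABCC5 lay between 29.8 and 49.2 CPM and ABCC2 between 2.25 and 3.49 CPM in the 6 libraries, with controls overlapping treated libraries. ABCB1 had 0 counts in both controls, 3 and 21 with doxorubicin alone and 2 and 5 in those labelled ZMYND8 plus doxorubicin. It did not pass the filter on low counts.

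**Figure D4:**
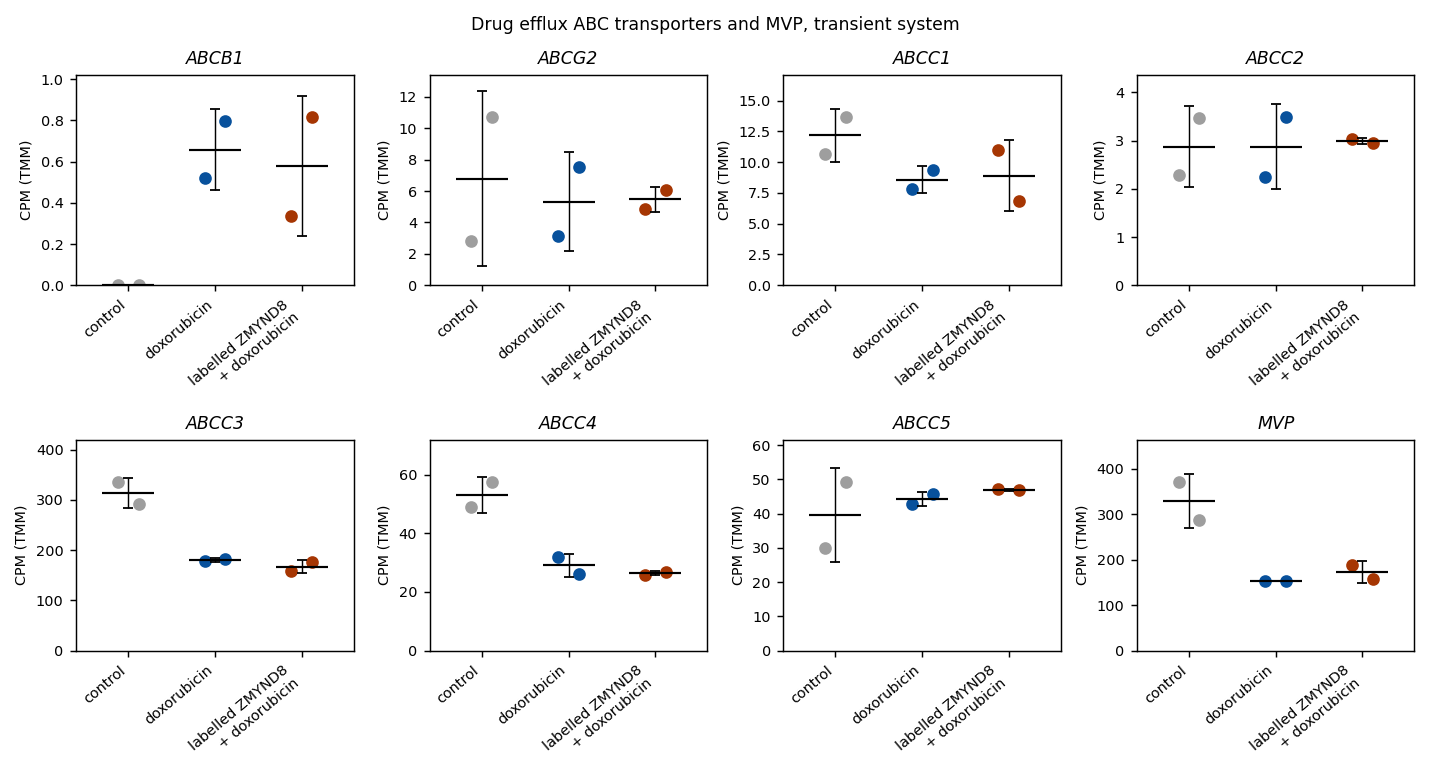
Each panel shows 1 member in the 6 transient libraries, with TMM-scaled CPM on the vertical axis from 0 and the 3 groups along the horizontal axis; points are libraries, long bars the mean and whiskers the SD of 2 libraries. MVP, ABCC3 and ABCC4 are higher in both controls than in the 4 treated libraries, while the treated groups lie close to each other.

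Doxorubicin for 48 h lowered MVP 2.14-fold in the transient system (-1.10 ± 0.21, adjusted p = 0.017), ABCC4 1.84-fold (-0.88 ± 0.22, adjusted p = 0.0416) and ABCC3 1.74-fold (-0.80 ± 0.19, adjusted p = 0.0416). Of the 7 members tested, these 3 fell and 0 rose, beside 5.12% of all 15697 genes called, and the members' median was -0.49 against 0 over all genes. With a replicate block the same 3 members were called, beside 2410 of all genes in place of 803. The block pairs libraries by number and so pairs the near-identical libraries with each other. ABCC1 (-0.49, 95% interval -1.18 to 0.21), ABCG2 (-0.27, -1.47 to 0.93), ABCC5 (0.16, -0.38 to 0.71) and ABCC2 (0.06, -0.89 to 1.00) were not called. ABCB1 averaged 0.658 CPM, near the floor of 3 counts in a control (0.570 CPM), and its first doxorubicin library was below that floor, so no rise is claimed. Each of these calls was lost in some fits that left out 1 library, while the log2 fold changes of those fits stayed at -0.92 to -1.10 for MVP, -0.74 to -1.02 for ABCC4 and -0.71 to -0.82 for ABCC3. MVP was not called without the first control (adjusted p = 0.0552), the first doxorubicin library (0.0622) or the second (0.129). ABCC4 was not called without the first or second control (0.0552 and 0.105), the first or second doxorubicin library (0.0782 and 0.326), or the first or second library labelled ZMYND8 plus doxorubicin (0.0625 and 0.0638). ABCC3 was not called without the first control (0.114), the first or second doxorubicin library (0.155 and 0.242), or the first or second library labelled ZMYND8 plus doxorubicin (0.066 and 0.0676). The number of all genes called depended on single libraries too, at 117 in place of 803 without the second doxorubicin library. With both second libraries of the near-identical pair left out, no member was called (MVP -1.09, adjusted p = 0.142). With total counts the share of rises among called genes went from 58.3% to 77.9%, and ABCC4 (adjusted p = 0.0874) and ABCC3 (0.0802) were not called. Nor were they called when the fit held only the groups compared (ABCC4 -0.87, adjusted p = 0.0635, and ABCC3 -0.79, adjusted p = 0.0692). Other called genes of the lists were few: FTL (-1.01 ± 0.25), ME1 (-0.96 ± 0.21) and TXNRD1 (-0.84 ± 0.20) fell among 13 NRF2 targets, AKR1C3 fell (-0.97 ± 0.25) among 15 uptake and metabolism genes tested, and EZH2 (0.90 ± 0.20), ABCA7 (1.16 ± 0.23) and ABCG4 (2.57 ± 0.53) rose. Of the markers, COL1A2 of fibroblasts (-2.59 ± 0.31) and CAV1 of the line (-0.79 ± 0.20) fell as well, and their part in the members' values was not tested.

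The libraries labelled ZMYND8 plus doxorubicin showed the same 3 members below the controls, which both comparisons share. ABCC4 was 2.01-fold lower (-1.01 ± 0.22, adjusted p = 0.0236), MVP 1.91-fold lower (-0.93 ± 0.21, adjusted p = 0.0268) and ABCC3 1.88-fold lower (-0.91 ± 0.20, adjusted p = 0.0221). In all, 3 of the 7 members tested were lower and 0 higher, beside 6.82% of all genes called, with medians of -0.45 and 0. With a replicate block, which again pairs the near-identical libraries, the same 3 members were called, beside 2795 of all genes in place of 1071. ABCC1 was not called (-0.45, 95% interval -1.17 to 0.26), nor were ABCG2 (-0.33, -1.58 to 0.93), ABCC5 (0.25, -0.30 to 0.80) and ABCC2 (0.05, -0.96 to 1.06). ABCB1 averaged 0.577 CPM, with the first of these libraries below the same floor of 0.570 CPM, so no rise is claimed here either. ABCC4 was not called without the second control (adjusted p = 0.0684) or the first or second labelled library (0.137 and 0.106). MVP was not called without the first control (0.0809) or either labelled library (0.102 and 0.176), and ABCC3 without the first control (0.0591) or either labelled library (0.163 and 0.0921). The log2 fold changes of these fits were -0.89 to -1.05 for ABCC4, -0.75 to -1.08 for MVP and -0.83 to -1.01 for ABCC3. Over all genes, 152 were called without the first and 301 without the second labelled library, in place of 1071. With both second libraries of the near-identical pair left out, no member was called (ABCC4 -1.05, adjusted p = 0.109). With total counts the share of rises among called genes went from 56.5% to 73.6%. EGR1 (2.63 ± 0.69), ABCG4 (2.72 ± 0.55), ABCA7 (1.27 ± 0.24), ABCB8 (0.94 ± 0.23) and EZH2 (0.82 ± 0.20) were higher, and ME1 (-1.12 ± 0.21), TXNRD1 (-0.94 ± 0.20) and HIF1A (-0.85 ± 0.22) lower. The markers COL1A2 (-2.62 ± 0.32) and CAV1 (-0.97 ± 0.20) were lower too.

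When the group labelled ZMYND8 plus doxorubicin was set against doxorubicin alone, 0 members were called by edgeR, beside 0% of all genes, with 54 genes at an unadjusted p of at most 0.05 and 0 genes called by DESeq2. Other settings called a few genes but no member: 27 with both second libraries of the near-identical pair left out, 17 with no filter on low counts, and 1 to 3 in each fit without 1 of the 4 treated libraries. The members' log2 differences were small, and their intervals were wide for the less abundant genes. MVP differed by 0.17 (95% interval -0.29 to 0.63), ABCC3 by -0.11 (-0.54 to 0.31), ABCC4 by -0.12 (-0.61 to 0.36) and ABCC5 by 0.09 (-0.46 to 0.63). ABCG2 differed by -0.05 (-1.26 to 1.15), ABCC1 by 0.04 (-0.67 to 0.74) and ABCC2 by -0.01 (-0.92 to 0.91). The ratio of ABCB1 from the summed counts was 0.777 (95% counting interval 0.283 to 1.86). As 1 library of each group is nearly the same and ZMYND8 was not higher in the labelled group (-0.09, 95% interval -0.61 to 0.42), this comparison does not measure what ZMYND8 does.

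Over the 12 inducible libraries, which share their lines and treatment groups, the genes with the most similar pattern to a member were named by Pearson correlation of log2 CPM among 13136 genes. MVP was most like the kinase gene MAPK3 (r = 0.996) and TTC7B (0.994). ABCG2 was most like AMPH (0.991) and BRDT (0.99), ABCC3 like SORL1 (0.99) and TGFBR2 (0.99), and ABCC4 like VIM-AS1 (0.989) and GGT5 (0.989). No pattern is given for ABCB1, which had counts in 4 of the 12 libraries. ABCC2 was most like CYB5RL (0.973) and TMEM143 (0.96). ABCC5 was most like GCAWKR (0.948) and PPP1R10 (0.924), and ABCC1 like MROH1 (0.939) and NIPA1 (0.935). These correlations describe the 6 groups and are no test.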

How the data were processed

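The 18 poly(A) libraries were grouped by their labels. The deposited values are gene counts that have not been scaled. The authors obtained them with featureCounts 1.6.4 from paired reads, as the headers show, with GENCODE 31 on hg38, the reverse-stranded setting, exons added up by gene and no multi-mapping reads. The other deposited column used is the exon length of each gene. The paper's methods name TopHat as the aligner, and the submitters' processing notes name Trim Galore and HISAT2, so the aligner is not settled. The depth was 5729294 to 24713822 counts for transient libraries and 18300628 to 23724398 for inducible ones.

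The libraries of each system were fitted together in edgeR 4.0.16 (R 4.3.3) with TMM factors, filterByExpr by group (15697 and 18801 genes left), 1 mean per group and the quasi-likelihood test. P-values were adjusted by Benjamini and Hochberg across the genes tested, and a gene is called at 0.05 or less. They measure the spread between 2 libraries per group, which the labels number as replicates. An exact permutation test of 2 against 2 libraries cannot reach that threshold and was not used. Whether libraries of 2 groups overlapped is given for the members and ZMYND8 only, and the share over all genes was not counted. The interaction is the change with doxorubicin in ZMYND8 cells minus that in GFP cells. Where every library of a group had at most 3 counts, a fold is a lower bound against 3 counts in its shallowest library, and between 2 groups with counts a ratio with its 95% interval is given. Floors and such intervals cover counting error only. Intervals of log2 values are those of the fit. DESeq2 1.42.0 and the other alternatives are given at the end. DESeq2 gave no adjusted p for 5 member values, which were left out.

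The members and lists were chosen with earlier results of these data known. Besides the members, up to 3 rises and 3 falls of each list with the largest called change and an average log2 CPM of at least 0 could be named, and the text gives some of them. The lists were other ABC genes by subfamily, not all of which are given, vault partners, doxorubicin uptake and metabolism, NRF2 targets, regulators of transporter genes and the markers named in the text. Counts of called list genes leave out genes with at most 3 counts in each library of a group compared, a rule applied to the lists after their values were seen. The silent ABC and marker genes that gained counts at 48 h were named after their values were seen. Similar patterns were ranked among genes averaging at least 1 log2 CPM (prior count 2). Summaries used Python 3.11.15. Pairs of libraries were compared by chi-square over genes with at least 20 counts. Strands were checked in gene pairs with at least 90% of the antisense gene's exons within exons of a gene of at least 20 CPM.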

Additional observations from a re-analysis of the deposited data

Results flagged for a closer look

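The tested difference between the lines in their response to doxorubicin singled out 6 results. After 48 h the interaction was -2.355 on the log2 scale for ABCG2, -0.9108 for ABCC1, -0.2162 for MVP, 0.6139 for ABCC4 and 0.3136 for ABCC3. After 6 h it was -0.2849 for ABCC5. The value of MVP lost its call in 6 of the 12 fits that left out 1 library and that of ABCC5 in 11 of the 12.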

How the results depend on the processing

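Direction was the same in every setting for each called member value, and sign changes of values called in neither fit were not counted. Of the alternatives' values for single members, 1441 were on the same side of the threshold, 110 lost a call and 8 gained one. The values on the same side include all those of ABCB1 in the inducible system. Where both groups compared had no ABCB1 counts, and in its interactions, this side was fixed in advance. The share of ABCB1 in this tally is therefore no test of how stable the calls are. Of the alternatives' counts of members called, 162 were within 1.5 times the reported count and 39 were not.

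In the order transient doxorubicin against control, the libraries labelled ZMYND8 plus doxorubicin against control, GFP cells at 6 and 48 h, ZMYND8 cells at 6 and 48 h, ZMYND8 against GFP cells without, at 6 h and at 48 h, and the interactions at 6 and 48 h, the study's cutoff (unadjusted p up to 0.05, log2 change from 1 in the transient and from 1.5 in the inducible system) called 1, 1, 0, 3, 0, 1, 1, 1, 1, 0 and 1 members. ABCB1, given above as a bound and not as a test, is among these at 48 h, and without it the cutoff called 2 members in GFP cells and 0 in ZMYND8 cells. Total counts called 1 member after transient doxorubicin and 4 in ZMYND8 cells at 6 h. With the compared groups alone, 1 member was called after transient doxorubicin. DESeq2 called 0 members in the interaction at 6 h. With both second libraries of the near-identical pair left out, 0 members were called against control in either transient comparison. The causes were not tested.

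Leaving out each library in turn gave 0 to 2 members after transient doxorubicin, 0 to 3 in the libraries labelled ZMYND8 plus doxorubicin against control and 0 to 0 between these groups. In the inducible system it gave 2 to 3 members in GFP cells at 6 h, 6 to 7 at 48 h, 2 to 4 in ZMYND8 cells at 6 h and 6 to 6 at 48 h. ZMYND8 against GFP cells gave 6 to 6, 5 to 6 and 3 to 4, and the interactions 0 to 1 and 3 to 5. A group left with 1 library is assumed to vary like the others. Counts at 48 h against untreated cells, in GFP and in ZMYND8 cells, include ABCB1 in every fit, although it is a bound and no test. Without it, the fit of all libraries called 6 members in GFP cells and 5 in ZMYND8 cells.

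A replicate block (libraries paired by number) called 0 members in the interaction at 6 h and left the other counts of members as they were. Over all genes the block called 2410 in place of 803 after transient doxorubicin and 2795 in place of 1071 in the labelled group against control, so the share of genes set beside the members is larger under it. Replicate numbers correlated by 0.208 to 0.404 over 3 pairs of groups in the transient and by -0.0458 to 0.0216 over 15 in the inducible system, and the labels name no shared batch. The 0.404 was between the groups that hold the near-identical libraries, which share a replicate number. The block in the transient system therefore cannot be told apart from that likeness. With 2 libraries per group, standard errors were larger in the transient system than in the inducible system (for MVP 0.21 against 0.05 in the 48 h comparisons with control and with untreated GFP cells). Why was not tested.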
